A study of Mus musculus with 8 samples.

Results

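The Dlk1-Meg3 cluster is an imprinted domain on mouse chromosome 12, in which some genes are transcribed from the paternal and others from the maternal chromosome. Its members were taken as the rows of the deposited RNA-seq table whose name was Dlk1, Meg3, Rtl1, Rian, Mirg or Dio3. Of these 6 genes, 5 had a row among the 19429 genes of the table. No row carried the name or the identifier of Rian, and Rian was not analysed here. The RNA came from LF2, a line of mouse embryonic stem cells (mESCs) grown with LIF and fetal bovine serum, in which TET1 had a C-terminal FLAG tag. WT lines 2 and 5, with wild-type TET1, and D2018A lines 7 and 8, which encode an alanine in place of an aspartate of TET1, were each sequenced as 2 technical replicates, which gave 4 libraries per genotype. Every line grew from 1 edited cell, and the WT cells also carried a large deletion distal to the Cas9 cut site that is absent from the D2018A cells.

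The table gives a single value of expression per gene, the authors' mean of normalised counts over all libraries of their fit, and its other values are the authors' own comparison of the genotypes, which was not used. The levels below are therefore those of the pooled libraries. They carry no standard deviation, no number of replicates and no difference between WT and D2018A. The smallest means fell on 12 values, each shared by between 38 and 123 genes, which is the pattern of 1 read in 1 library. The mean thus appeared to cover 12 libraries, 4 more than the 8 described here, and the line and genotype of those 4 are unknown. The number depends on how many genes must share a value, since 5 such values were found with at least 50 genes and 12 with at least 20 or 30. None of these values was assigned to a genotype. A single read was worth between 0.0565 and 0.115 of mean, depending on the depth of its library, and the means added up to 10937569 normalised counts.

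In this domain Dlk1, Rtl1 and Dio3 encode proteins and are expressed mainly from the paternal chromosome, whereas the noncoding RNAs Meg3, Rian and Mirg come from the maternal one. Parental methylation of a control region between Dlk1 and Meg3 sets this pattern, and the maternal RNAs host many microRNAs and small nucleolar RNAs. In pluripotent stem cells the maternal RNAs can become silenced in culture, a state known from lines that contribute poorly to embryos. TET enzymes remove the DNA methylation on which such imprints rest.

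The noncoding members were far more abundant than the protein-coding members. Meg3 and Mirg held 99.3% of the normalised counts of the 5 members, and Dlk1, Rtl1 and Dio3 together held 0.691%. Meg3 had an authors' mean of 6489 normalised counts and Mirg of 1265. Dio3 had an authors' mean of 33.7, Dlk1 of 19.6 and Rtl1 of 0.652. The cluster was therefore not silent in the pooled libraries, although these means cannot show whether every library expressed it. In pooled RNA, fewer expressing cells and less RNA per cell cannot be told apart.

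**Figure D1:**
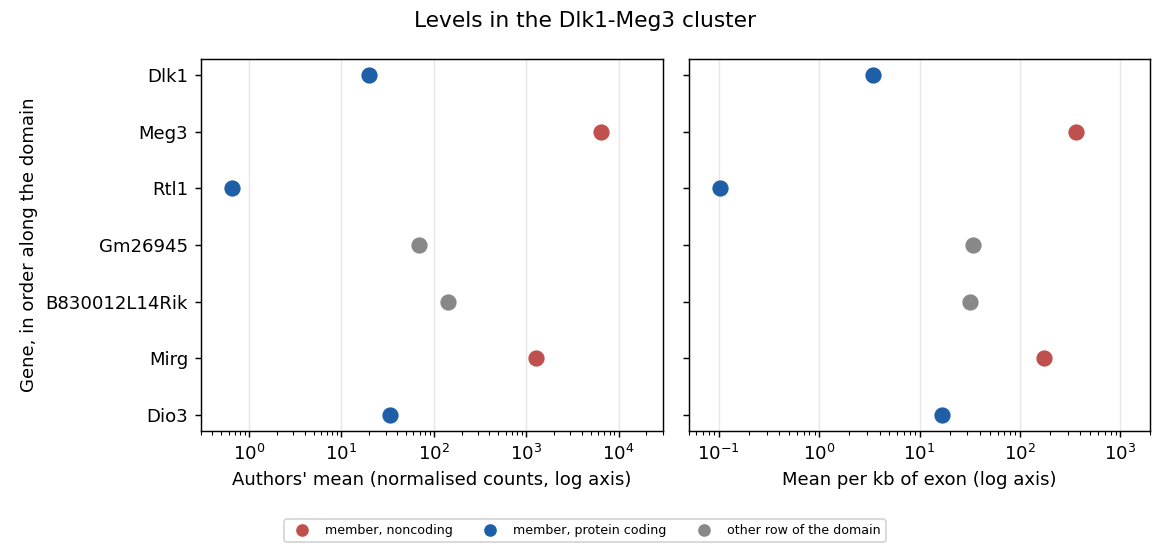
The left panel plots the authors' mean (normalised counts, log axis) and the right panel that mean per kb of exon (log axis) for the 7 rows of the domain, in their order along the chromosome. Red points are noncoding members, blue points protein-coding members and grey points other rows. Meg3 and Mirg lie to the right of all other rows in both panels and Rtl1 lies farthest to the left.

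Meg3 (ENSMUSG00000021268, chromosome 12, 109541001 to 109571726 of GRCm38, plus strand) is a long noncoding RNA known as a growth suppressor. It ranked 190 of 19429 genes by mean, above 99.0% of them. Among the 1258 genes with the biotype lincRNA it ranked 4, after Gm26917, Gm42418 and Malat1. The gene Gm26917 had an authors' mean of 274828 and Gm42418 of 51615, while Malat1, a nuclear RNA that most cells make in large amounts, had 9273. The exons of Meg3 cover 18089 bases in 8 blocks, the largest exon length of the 5 members with a row. Per kb of exon its level was 359 normalised counts, above 92.7% of genes with a known length.

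Mirg (ENSMUSG00000097391, 109729764 to 109749460, plus strand) is a microRNA host transcript at the far end of the maternal RNAs. It ranked 1932 by mean, above 90.1% of all genes, and 8 among lincRNA genes. Its level per kb of exon was 173, above 85.0% of genes, so Meg3 exceeded Mirg 5.13-fold by mean and 2.07-fold per kb. The difference per kb depends on the length chosen, because the 7292 exon bases of Mirg come from 12 annotated transcripts and the longest of these has 3822 bases. With the longest transcript as length, Meg3 was 1.35-fold above Mirg. No replicate values exist here against which to set that difference.

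Dio3 (ENSMUSG00000075707, 110279068 to 110281097, plus strand) encodes the deiodinase that inactivates thyroid hormone. Its mean lay above 43.5% of all genes and above 36.6% of the 16950 protein-coding genes. It is a short gene with 2030 exon bases in 1 block, and its level per kb was 16.6, above 49.6% of genes and so near the middle of the table. At the read values given above, its mean corresponds to between 294 and 595 reads over the whole fit.

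Dlk1 (ENSMUSG00000040856, 109452823 to 109463336, plus strand) encodes a transmembrane protein related to the Notch ligands that restrains adipocyte differentiation. Its mean lay above 39.0% of all genes and above 31.9% of protein-coding genes, and corresponds to between 172 and 347 reads. Per kb its level was 3.47, above 33.4% of genes. Dio3 was 1.71-fold above Dlk1 by mean and 4.78-fold above it per kb, so these neighbours in the order were much closer by mean than by level per kb. Whether they differ beyond the spread between libraries cannot be stated without values per library.

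Rtl1 (ENSMUSG00000085925, 109589193 to 109600330, minus strand) is a gene derived from a retrotransposon that is needed in the placenta. Its mean lay above 13.5% of all genes and corresponds to between 6 and 11 reads over the whole fit. Per kb the level was 0.103, above 6.32% of genes. With so few reads the value gives a rank near the bottom of the table and no reliable size, and the mean does not tell which libraries they came from. Per kb Dlk1 exceeded Rtl1 33.9-fold and Meg3 exceeded it 3498-fold, ratios that rest on the same few reads.

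**Figure D2:**
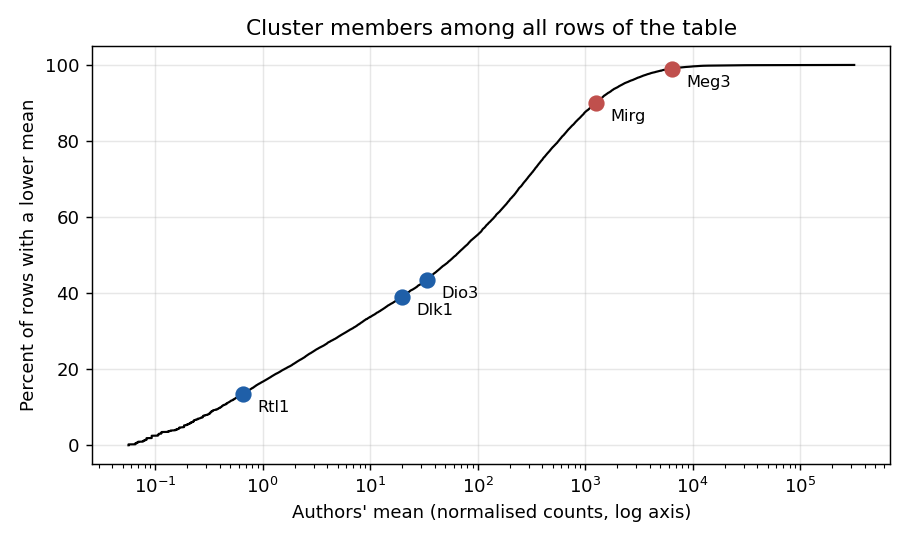
The black line gives, for each authors' mean (normalised counts, log axis), the percent of the 19429 rows with a lower mean, and the points mark the noncoding (red) and protein-coding (blue) members. Meg3 and Mirg sit at 99.0% and 90.1%, whereas Dio3, Dlk1 and Rtl1 sit at 43.5%, 39.0% and 13.5%.

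Rtl1 is transcribed against the direction of the maternal RNAs, and a set of microRNA genes lies inside its exons on the opposite strand. The microRNA sequences of RefSeq (GRCm38.p6) placed 6 such genes there, with 11 mature microRNAs. All 11 have their exact complement in the Rtl1 transcript of 6358 bases, which follows from their place on the opposite strand of its exons. Reads from the maternal strand and from Rtl1 could thus fall on the same bases, but no read positions were available. The following list gives 1 mature microRNA for each gene, with the seed (bases 2 to 8) in capitals.
mmu-miR-136-5p: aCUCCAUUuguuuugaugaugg
mmu-miR-432: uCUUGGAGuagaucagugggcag
mmu-miR-434-3p: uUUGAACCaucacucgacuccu
mmu-miR-127-3p: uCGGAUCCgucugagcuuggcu
mmu-miR-433-3p: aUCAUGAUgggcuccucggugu
mmu-miR-431-5p: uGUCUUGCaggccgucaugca

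Counted from the 5′ end of the Rtl1 transcript, the complement of miR-136-5p begins at base 199, that of miR-432 at 523 and that of miR-434-3p at 965. For miR-127-3p it begins at base 2642, for miR-433-3p at 3749 and for miR-431-5p at 5072. The microRNAs are thus spread over most of the transcript, from near its 5′ end to well beyond its middle. All 11 mature microRNAs had different seeds. The sources do not state whether the counting used strand, and without strand a read from the maternal RNA could be counted for Rtl1. The mean of 0.652 holds all reads that were counted for Rtl1, whatever their strand.

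Small RNA genes fill the region, and the table holds no rows for such genes. From the start of Dlk1 to the end of Dio3 the GENCODE vM21 annotation holds 118 genes, among them 67 microRNA, 23 small nucleolar RNA, 12 lincRNA and 3 protein-coding genes. Of the 118 genes 7 had a row, namely the 3 protein-coding genes and 4 lincRNA genes. Of 58 microRNA genes that RefSeq gives for the same interval 0 had a row. This held for the whole table, in which 0 of 2202 annotated microRNA genes and 0 of 1507 small nucleolar RNA genes had a row. By position, 14 of the 58 lay inside Mirg, 9 of them in exons and 5 in introns, and 33 lay outside all members. Exons of other genes on the same strand covered 5.03% of the exon bases of Mirg, 1.26% of those of Rtl1 and 271 of the 18089 exon bases of Meg3, and apart from Gm27300 in Meg3 these were microRNA genes. On either strand the shares were 8.40% for Rtl1 and 8.29% for Meg3, and Dlk1 and Dio3 shared 0% of their exon bases. How reads in shared exons were assigned is not given in the sources used here. The levels of Meg3 and Mirg are those of long RNA and say nothing of the mature microRNAs.

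The 2 rows of the domain that are no members were the lincRNA genes Gm26945 and B830012L14Rik. Gm26945 (109640341 to 109642351) lies within the span of Rian (109603940 to 109661716) on the same strand and shares 0 exon bases with it. Its authors' mean was 69.0, or 34.3 per kb. B830012L14Rik (109695586 to 109702587), between Rian and Mirg, had an authors' mean of 143, or 31.7 per kb. Both levels per kb lay below that of Mirg and above that of Dio3, so all 4 lincRNA rows of the domain exceeded all 3 protein-coding rows, by mean and per kb. Rian carries the biotype processed_transcript in the annotation, a class of which 36 of 790 annotated genes had a row.

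**Figure D3:**
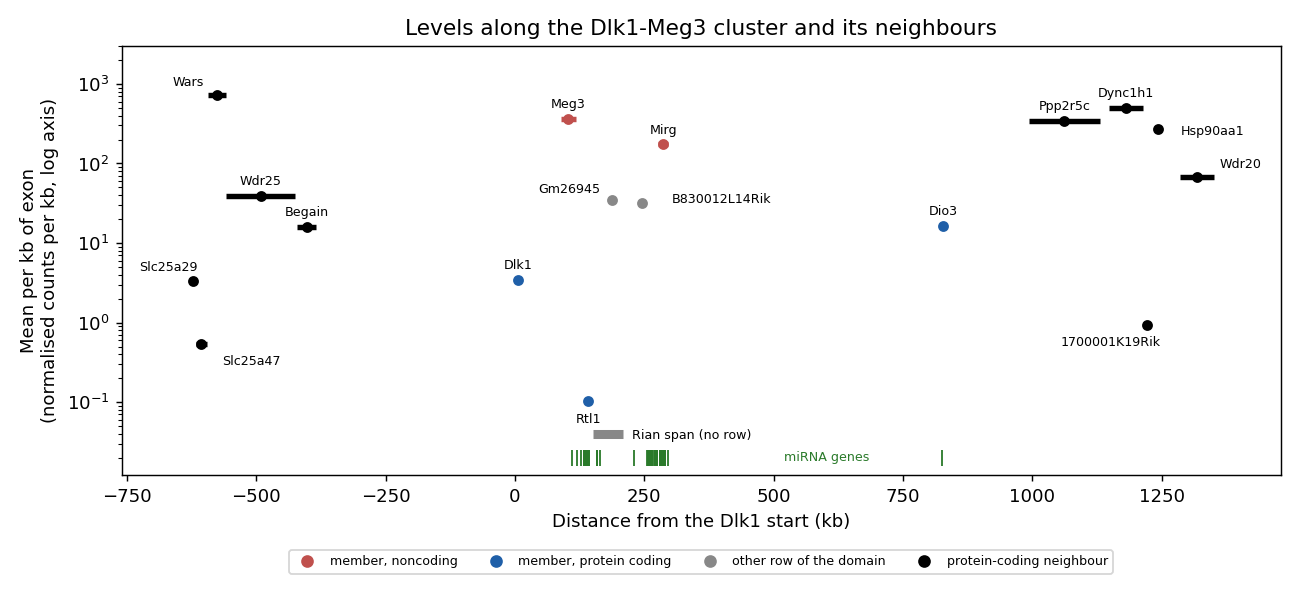
Each gene is drawn at its mean per kb of exon (vertical, normalised counts per kb, log axis) against its distance from the Dlk1 start in kb, with a bar for its span. Red and blue mark noncoding and protein-coding members, grey the other rows of the domain and the span of Rian, black the protein-coding neighbours and green ticks the microRNA genes. Meg3 and Mirg, at 359 and 173, stand between the lower values of Dlk1, Rtl1 and Dio3.

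Outside the domain the nearest protein-coding rows spanned a wide range of levels per kb. The 5 on the Dlk1 side ran from 0.542 (Slc25a47) to 729 (Wars, a transfer RNA synthetase), and the 5 on the Dio3 side from 0.943 (1700001K19Rik) to 503 (Dync1h1, the heavy chain of cytoplasmic dynein). Begain, the nearest on the Dlk1 side at a gap of 385 kb, had 16.1 per kb. Ppp2r5c, a regulatory subunit of the phosphatase PP2A and the nearest on the Dio3 side at 166 kb, had 341 per kb. The median of the 10 neighbours was 53.6 per kb, against 24.5 for all protein-coding rows. Dio3 lay below 6 of the 10 neighbours per kb, Dlk1 below 7 and Rtl1 below all 10. Meg3 was exceeded per kb by 2 of them, Wars and Dync1h1.

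Among imprinted genes of other domains, the noncoding members ranked above the protein-coding members. Of a list of 32 such genes 30 had a row, with authors' means from 5.45 (Airn) to 5007 (Kcnq1ot1). None of the 30 had a higher mean than Meg3, and 5 had a higher mean than Mirg, before any correction for length. Per kb of exon 2 exceeded Meg3, namely Peg10 (715), a retrotransposon-derived gene of the placenta, and Mest (645). Mirg, at 173, was exceeded per kb by 7, the closest being Slc38a4 (174), an amino acid transporter. This place depends on the length chosen, since Mirg stood at 331 per kb with its longest transcript as length. The listed genes were not computed with that length. Dio3 was exceeded per kb by 21 of the 30 and Dlk1 by 26, while Rtl1 lay below all 30, the lowest of which was Zim1 (1.38).

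**Figure D4:**
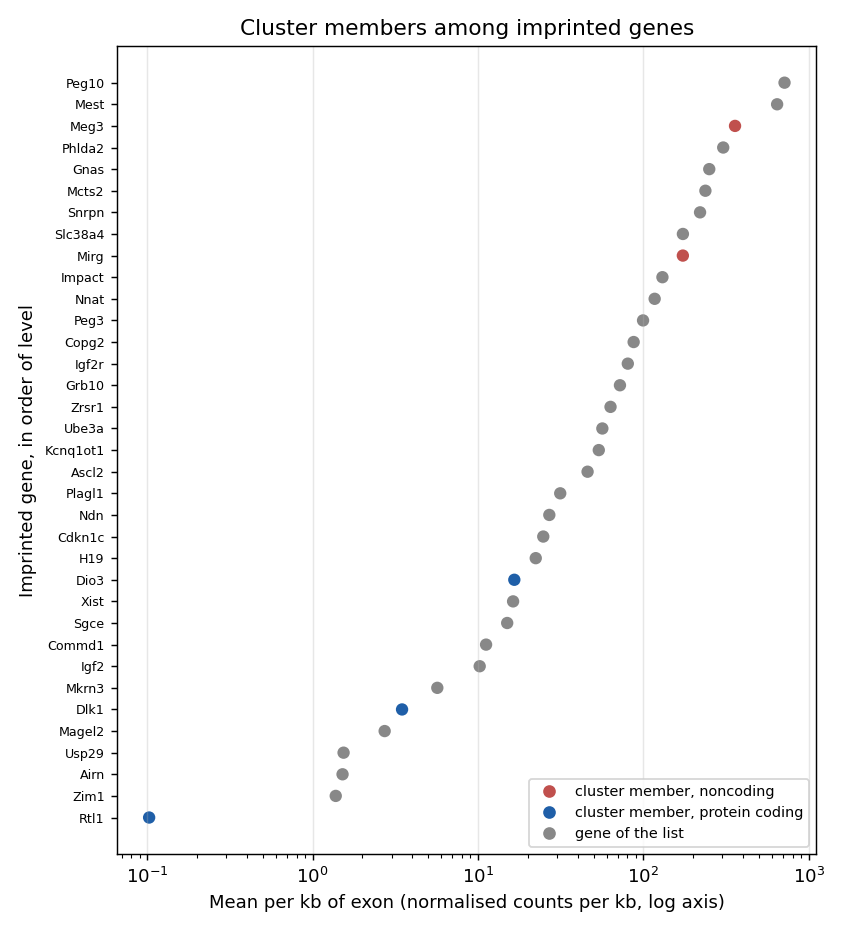
The level per kb of exon (normalised counts per kb, log axis) is plotted for the 5 members, noncoding in red and protein coding in blue, and for the 30 listed imprinted genes of other domains in grey, in order of level. Peg10 and Mest lie above Meg3 and 7 listed genes lie above Mirg, whereas Rtl1 is at the bottom at 0.103.

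Genes related to the protein-coding members by sequence were also measured. Dlk2, the paralog of Dlk1, had an authors' mean of 2.05, or 0.972 per kb, against 3.47 per kb for Dlk1. Dio1 and Dio2, the deiodinases that activate thyroid hormone, had no row. Of 10 retrotransposon-derived relatives of Rtl1 9 had a row, with levels per kb from 0.0914 for Rtl4 (named Zcchc16 in the table) to 715 for Peg10. Rtl4 and Rtl9 (Rgag1, 0.126) lay near Rtl1. Their authors' means, 0.332 and 0.518, lay below the 0.652 of Rtl1, so these levels also rest on few reads. Rtl8c (Cxx1c) had an authors' mean of 0.475, or 1.18 per kb, so 3 of the 9 relatives had a mean under 1. Rtl6 (Ldoc1l, 35.6) and Rtl8b (Cxx1b, 47.5) lay far above Rtl1. Low expression was thus not shared by the whole family.

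Factors known to maintain or change the imprint of this domain were measured in the same libraries. All 10 genes of this list had a row, with a median level of 527 normalised counts per kb of exon. Zfp57 (998 per kb), a zinc finger protein that binds methylated imprinting control regions, and its partner Trim28 (6084 per kb) were abundant. Dnmt1 (717 per kb), which copies DNA methylation, and Uhrf1 (337 per kb), which recruits it, were as well. Tet1 had a level of 1493 per kb and Tet2 of 921. Dppa3 (8.16 per kb), which protects this domain from gaining methylation in reprogrammed cells, and Aff3 (9.45 per kb), which binds its control region, were the lowest of the 10. Both lay above Dlk1 and below Dio3 per kb.

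The 300-base promoter windows of RefSeq (GRCm38.p6, 250 bases before to 50 after a start) were read for the members because the study concerns CpG methylation, and CG is in capitals. No window was read for Rtl1. Those of the most abundant member and of Dlk1 are given.
Meg3, chr12:109540746-109541045, plus strand: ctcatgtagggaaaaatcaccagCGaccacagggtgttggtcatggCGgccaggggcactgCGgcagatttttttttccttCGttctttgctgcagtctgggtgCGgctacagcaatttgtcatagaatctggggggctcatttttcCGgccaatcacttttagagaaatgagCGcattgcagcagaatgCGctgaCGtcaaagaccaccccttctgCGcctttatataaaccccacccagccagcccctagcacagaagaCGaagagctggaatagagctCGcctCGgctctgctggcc
Dlk1, chr12:109452573-109452872, plus strand: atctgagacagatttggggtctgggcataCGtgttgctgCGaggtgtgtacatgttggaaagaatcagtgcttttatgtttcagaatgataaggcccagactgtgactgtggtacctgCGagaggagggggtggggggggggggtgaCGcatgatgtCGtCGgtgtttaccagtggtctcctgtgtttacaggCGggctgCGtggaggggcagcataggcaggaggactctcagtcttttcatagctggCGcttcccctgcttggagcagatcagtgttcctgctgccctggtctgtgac

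The Meg3 window held 13 CG and the Dlk1 window 9, against a median of 7 over 32851 windows. Dio3 had 25, and 18.4% of all windows had at least as many. The Dio3 window runs from 110278980 to 110279279, so most of it lies past the annotated gene start at 110279068. The Mirg window had 10, but it runs from 109734731 to 109735030, inside the gene and past its annotated start at 109729764. A second Meg3 start, 109545148 to 109545447, had 1 CG and the Rian window had 0. The order of CG counts was not the order of levels, since Dio3 had the most CG and a mean of 33.7. The windows compared are not placed alike relative to the annotated gene starts. The motif TATAAA, searched on both strands, occurred in the first Meg3 window 2 times, on opposite strands and overlapping, and in the Dio3 window 1 time. It occurred in 13.6% of all windows. TGCCGC, the motif of Zfp57, occurred 1 time in the Meg3 window and in none of the windows read for Dlk1, Rian, Mirg, Dio3 and the second Meg3 start, against 11.6% of all windows, counting both strands.

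The cells carried the transcripts that define embryonic stem cells. All 10 such markers had levels above that of Meg3 (359 normalised counts per kb of exon), from Zfp42 (520) to Utf1 (5903). Of 8 fibroblast markers, which would reveal feeder cells, Dcn, Lum and Postn had no row. Col3a1 (0.00948 per kb) and Col1a2 (0.0554 per kb) lay near the bottom of the table, whereas Col1a1 (17.5 per kb), Pdgfrb (15.3 per kb) and Thy1 (64.8 per kb) were measured at levels above that of Dlk1. The summed authors' means were 393 for the 5 fibroblast markers with a row, 579 for 7 primitive endoderm markers, 229 for 5 trophectoderm markers and 2198 for 4 neural markers, of which Tubb3 made up 1736. The part of such cells in the levels of the members was not tested.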

How the data were processed

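RNA-seq is described for 8 libraries of mESCs, 4 WT and 4 D2018A, whereas the mean appeared to cover 12. The authors depleted ribosomal RNA, prepared libraries with a total RNA kit, sequenced single-end reads of 50 bases, aligned them to GRCm38.p6 and counted genes with STAR 2.5.3a, and normalised with DESeq2 1.20.0. The deposited mean column is a signal: counts divided by a size factor per library and averaged by the authors over the libraries of their fit. The remaining columns hold the authors' fold changes, standard errors, statistics and p-values for D2018A against WT and were not used, and no column held values of single samples. The planned edgeR test needs counts per library and was not run, so no test was made. Depth and precision are known only through the value of 1 read. Steps were means below 0.2 shared within a relative tolerance of 0.0001 by at least 30 genes and not sums of lower steps. The counting was also run on simulated data, with a search limit set from the known number of libraries. That run therefore cannot check the number of steps found here. Exon lengths and overlaps were taken from GENCODE vM21, which held 19342 of 19429 identifiers, 17545 of them with the same span. Of 13 paralogs, 10 had a row, in part under older symbols. All members, domain rows with a mean of at least 10, 5 neighbours per side and the fixed lists were named. Members and lists were chosen with earlier results of these data known. Python 3.11.15, pandas 2.3.3 and numpy 2.4.6 were used.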

Additional observations from a re-analysis of the deposited data

How the results depend on the processing

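The order of the 5 members, Meg3, Mirg, Dio3, Dlk1 and Rtl1, was the same by mean and per kb of exon. Of 27 alternative values, 25 stayed within 1.5-fold, but some of these could not move. Dlk1 and Dio3 share no exon bases with other genes, and the longest transcripts of Dio3 and Rtl1 equal their exon length. The percentiles of Meg3 were too near the top to rise 1.5-fold. The level of Mirg per kb was 331 with the longest transcript as length, because that transcript is shorter than all exons together. Only 5 single-read steps were found when at least 50 genes had to share a step, since fewer steps pass, against 12 with at least 20 or 30. For Rtl1 the filter on means of at least 1 gave no value, because its mean is below 1. No paired analysis was possible because no column carried values of single libraries. For the same reason normalisation, low-count filters and leaving out a line could not be run for D2018A against WT. Depth limits Rtl1 most.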

Other observations

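Other imprinted noncoding RNAs gave a scale for Meg3. Kcnq1ot1, the long RNA that silences a domain on its own chromosome, had an authors' mean of 5007 but 53.8 per kb of exon, against 359 per kb for Meg3. H19 had an authors' mean of 55.0, or 22.4 per kb, and Airn, the RNA antisense to Igf2r, of 5.45, or 1.52 per kb. Mirg at 173 per kb also exceeded all 3. Part of the sequence of Meg3 was not its own: 4.29% of its 50-base stretches also occurred in transcripts of other genes on the same strand, and 10.4% when both strands were counted, with Gm26906, an antisense lincRNA gene that shares its exons, among them. For Dlk1 and Dio3 the value was 0%, for Mirg 1.34% and for Rtl1 0.516%, on the same strand.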
